A study of Mus musculus with 16 samples.

Results

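Tmem204, Tslp and Gm42944 are 3 of the 17951 genes listed for sorted mouse microglia, and they were chosen by their measured levels, which were low in phagocytic microglia and clearly higher in both other groups. Microglia, the resident macrophages of the brain, were sorted as Cd11b+ and Cd45+ cells (in the study's methods also as Cx3cr1+ cells) after mice had been injected with methoxy-X04 (Me-X04), a fluorescent dye that binds aggregated amyloid-β and is carried into a cell that takes the aggregates up. All 16 libraries came from mice given the dye. The 7 WT libraries came from wild-type mice labelled 2 months old, and the 5 TG Me-X04- (non-phagocytic) and 4 TG Me-X04+ (phagocytic) libraries came from 5xFAD mice labelled 6 months old, so that by the labels age and genotype cannot be told apart in a comparison with WT. The study's methods give other ages, close to each other, for its wild-type and 5xFAD mice, and which ages apply to these libraries was not settled here. The 5xFAD mouse is a transgenic model of amyloid deposition whose transgenes are driven by the neuronal Thy1 promoter. Cells of animals TG1 to TG4 gave a non-phagocytic and a phagocytic library each, numbered alike, and those of TG5 a non-phagocytic library alone. The question behind the comparison was how the transcripts of microglia that had taken up amyloid-β differ from those of microglia that had not.

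TSLP (thymic stromal lymphopoietin) is a cytokine related to interleukin-7 that is best known from epithelial cells at barrier surfaces. It binds CRLF2, and the complex recruits the interleukin-7 receptor chain IL7R, after which the kinases JAK1 and JAK2 phosphorylate STAT5 and other STAT proteins. TMEM204, also called CLP24, is a claudin-like membrane protein of the PMP22 family that is found at cell contacts, is best known from endothelium, and has been tied to VEGF receptor signalling. Gm42944 is a locus of the annotation class TEC, which holds loci still awaiting experimental evidence, and has no known product.

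The 3 genes lie on different chromosomes of GRCm38. Tmem204 (ENSMUSG00000024168) spans chr17:25057702-25083591 on the minus strand, and its whole span lies inside the plus-strand gene Ift140, with 0 shared exonic bases. Tslp (ENSMUSG00000024379) spans chr18:32815383-32819797 on the plus strand, inside the minus-strand lincRNA gene 4930455D15Rik, which is not among the listed genes and shares 0 exonic bases with it. Gm42944 (ENSMUSG00000104918) is a single exon of 3980 bases at chr3:18622162-18626141 on the plus strand. The counted lengths were 2022 bases for Tmem204, 1133 for Tslp and 3980 for Gm42944. Whether reads were counted by strand is not given in the sources used here.

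The libraries held 15623664 to 22119327 reads on listed genes in WT, 17216633 to 25184600 in non-phagocytic microglia and 22430251 to 27579017 in phagocytic microglia. Mitochondrial genes took 12.6% to 31.4% of the reads in WT, 20.6% to 44.8% in non-phagocytic microglia and 31.3% to 56.8% in phagocytic microglia. Between 450 and 1831 listed genes had 0 reads in a phagocytic library, between 83 and 703 in a non-phagocytic library and between 55 and 1381 in a WT library. The deviations from the group means split the libraries into 2 sets along the first principal component (37.8% of the variance). Set A holds WT 1 to 3, non-phagocytic libraries 1 and 2 and phagocytic libraries 1 and 2, and set B the others. All 14 microglial markers examined were listed, with a summed level of 5942 to 8983 RPKM in WT, 5338 to 9765 in non-phagocytic microglia and 6380 to 9432 in phagocytic microglia. In bulk samples, fewer cells that express a gene and less RNA per cell cannot be told apart.

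Tmem204 was well expressed in WT microglia. Its level there ranged from 3.04 to 3.74 log2 RPKM with a median of 3.47, from 247 to 605 reads in a library. In non-phagocytic libraries 1 to 5 the levels were 1.89, 3.78, 2.75, 2.13 and 1.96 log2 RPKM, from 122, 549, 371, 222 and 191 reads. The values in phagocytic libraries 1 to 4 were -3.03, -1.07, -1.35 and -2.93 log2 RPKM, from 2, 13, 16 and 4 reads. All 4 phagocytic libraries lay below every other library, and non-phagocytic microglia varied more than WT, with non-phagocytic library 2 above all WT libraries. Mean levels were 3.41 ± 0.25 (SD, n = 7) in WT, 2.5 ± 0.79 (n = 5) in non-phagocytic microglia and -2.09 ± 1.03 (n = 4) in phagocytic microglia. On the linear scale without the prior, phagocytic microglia retained 2.17% of the WT mean and 3.63% of the non-phagocytic mean, a 27.6-fold difference from the latter. The 2 reads in phagocytic library 1 have a 95% counting interval of 0.242 to 7.22 reads, against 171.9 reads had the gene stood at its mean non-phagocytic level there.

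Tslp was a low transcript that was nevertheless read in every WT and non-phagocytic library. Its WT levels ranged from -0.58 to 0.20 log2 RPKM with a median of 0.01, from 10 to 31 reads. The non-phagocytic levels were 0.27, 0.50, -0.59, 0.34 and -0.08 log2 RPKM for libraries 1 to 5, from 21, 30, 18, 34 and 24 reads. No read fell on Tslp in any of the 4 phagocytic libraries, and the value of -3.57 log2 RPKM listed in each of them is that of the prior alone. Of the non-phagocytic libraries, 3 lay above all WT libraries, 1 lay below all of them and 1 lay within the WT range, with means in WT and non-phagocytic microglia of -0.15 ± 0.37 (SD, n = 7) and 0.09 ± 0.44 (n = 5). At its mean non-phagocytic level Tslp would have given 15.2, 17.2, 26.4 and 27.1 reads in phagocytic libraries 1 to 4. With each count of 0 set to a floor of 3 reads, mean Tslp was 6.72-fold lower than in non-phagocytic microglia and 5.56-fold lower than in WT. The lowest library of each group against the highest floor gave 2.88-fold for non-phagocytic microglia and 2.92-fold for WT. A count of 0 has a 95% counting interval up to 3.69 reads, which is above this floor. Intervals and floors cover counting error only. Tslp was 1 of 80 listed genes with 0 reads in every phagocytic library, and 1 of 3 of them with at least 10 reads in each WT and non-phagocytic library. The other two were Ptger3, a prostaglandin E2 receptor, and Gimap5, an immune GTPase.

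Gm42944 stood at a level similar to that of Tmem204. Its WT levels ranged from 3.30 to 3.79 log2 RPKM with a median of 3.53, from 584 to 1262 reads. The non-phagocytic levels were 1.84, 3.38, 3.14, 3.01 and 3.78 log2 RPKM for libraries 1 to 5, from 234, 820, 961, 811 and 1337 reads. In phagocytic libraries 1 to 4 the levels were -1.53, -1.48, -0.72 and -0.04 log2 RPKM, from 17, 20, 53 and 89 reads. The phagocytic libraries lay below all others again, and non-phagocytic library 1 was the lowest of its group. Mean levels were 3.52 ± 0.19 (SD, n = 7) in WT, 3.03 ± 0.72 (n = 5) in non-phagocytic microglia and -0.94 ± 0.70 (n = 4) in phagocytic microglia. Phagocytic microglia retained 4.75% of the WT mean and 6.16% of the non-phagocytic mean on the linear scale, a 16.2-fold difference from the latter. Unlike Tslp, it was read in all 16 libraries, as was Tmem204.

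**Figure D1:**
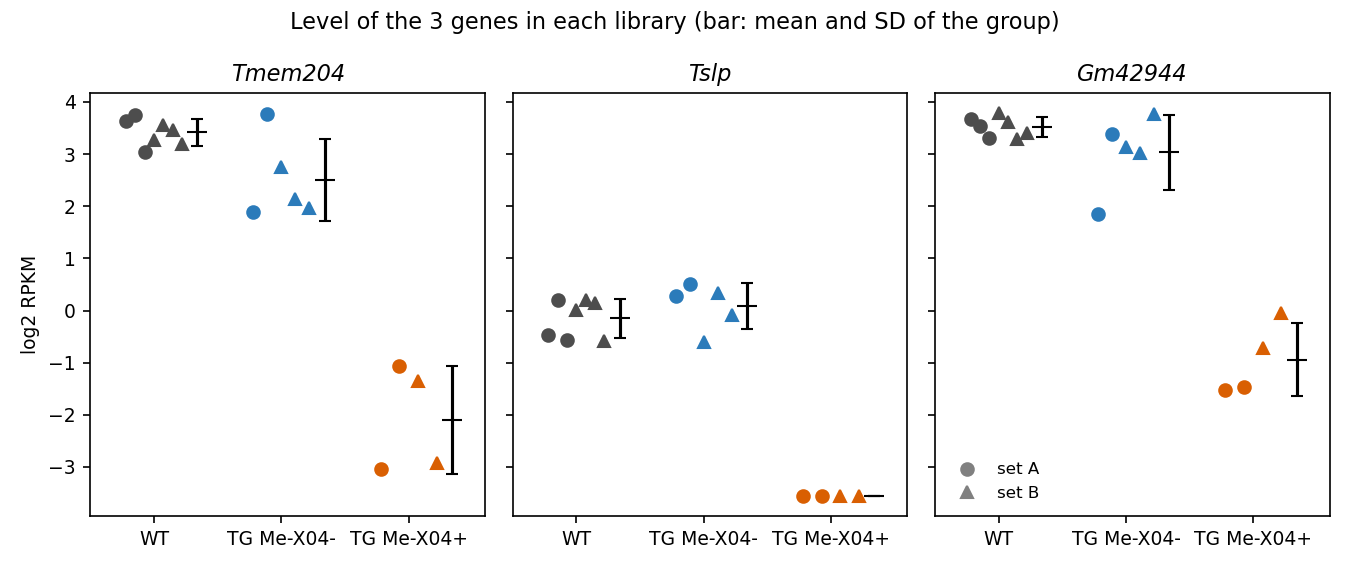
Levels of Tmem204, Tslp and Gm42944 (vertical axis, log2 RPKM) in each library of WT, non-phagocytic (TG-) and phagocytic (TG+) microglia, with the group mean and SD as a bar and the 2 sets of libraries as circles (set A) and triangles (set B). For each gene the 4 phagocytic libraries lie below all other libraries, and the 4 Tslp points at -3.57 are libraries with 0 reads.

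The log2FC of phagocytic microglia relative to non-phagocytic microglia was -4.60 for Tmem204, -3.97 for Gm42944 and -3.65 for Tslp, the last set by the prior and therefore no estimate of the fold. Because these falls chose the genes, they are given without a test. All 3 genes were lower in phagocytic microglia with no overlap with non-phagocytic microglia, as were 3.14% of the genes tested, and all 3 were lower with no overlap with WT, as were 3.97%. Nothing is read from either count. The gap between the lowest non-phagocytic library and the highest phagocytic library was 2.96 on the log2 scale for Tmem204, 2.97 for Tslp and 1.88 for Gm42944. With 1 added to the linear values before the logarithm the 3 log2FC shrank to -2.41, -0.94 and -2.58 for Tmem204, Tslp and Gm42944.

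Within set A the difference in mean between phagocytic and non-phagocytic microglia was -4.88 on the log2 scale for Tmem204, -3.95 for Tslp and -4.11 for Gm42944. Within set B it was -4.42, -3.46 and -3.69 for the same genes. In both sets every phagocytic library was below every non-phagocytic library for each gene, which follows from the lack of overlap over all libraries. Nothing is read from this, and the differences within the sets are a description. Mitochondrial read share and the number of genes at 0 reads were higher in phagocytic microglia than in non-phagocytic microglia within each set, and their part in these falls was not tested. Scaling by the reads outside mitochondrial genes left Tmem204 at -4.82, Tslp at -3.75 and Gm42944 at -4.24, and shifted the median log2FC of all genes from -0.094 to -0.355.

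Paired by animal, the log2 difference of Tmem204 was -4.92 in TG1, -4.84 in TG2, -4.10 in TG3 and -5.06 in TG4. For Gm42944 the animals differed more, with a log2 difference of -3.37 in TG1, -4.85 in TG2, -3.86 in TG3 and -3.05 in TG4. Tslp went from 21 reads to 0 in TG1, from 30 to 0 in TG2, from 18 to 0 in TG3 and from 34 to 0 in TG4. Of these animals, TG1 had the lowest Tmem204 and Gm42944 levels in both of its libraries, and TG2 had the highest Tmem204 level in both.

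**Figure D2:**
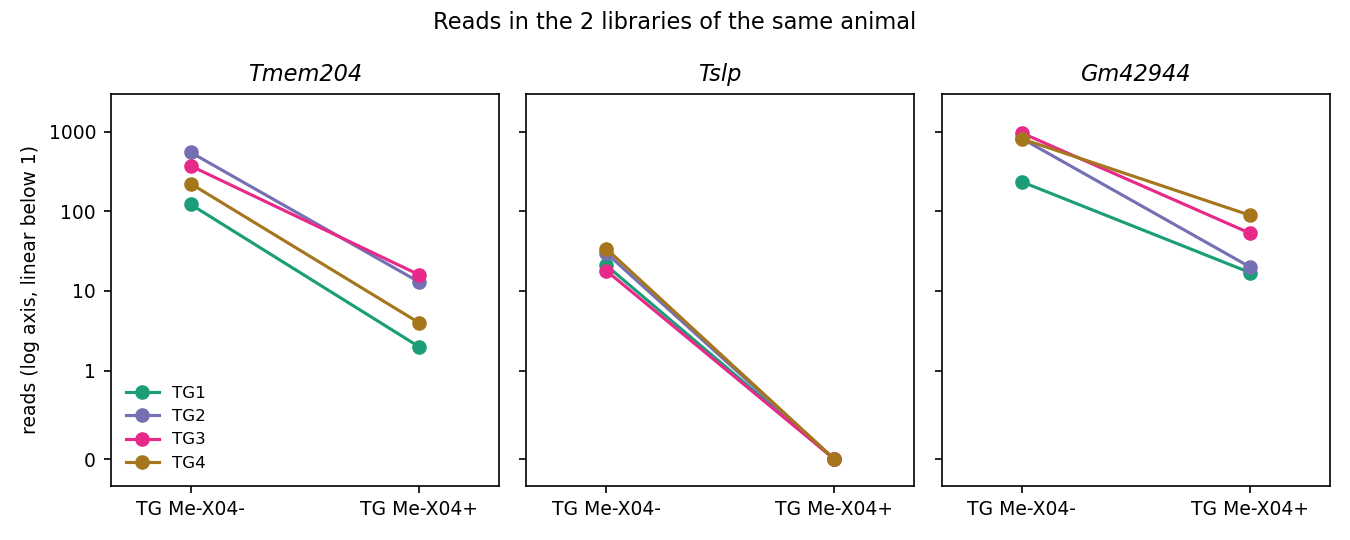
Reads on Tmem204, Tslp and Gm42944 (vertical axis, logarithmic above 1 read and linear below) in the non-phagocytic and phagocytic library of each of 4 animals, joined by a line. Every line falls, for Tslp to 0 reads in all 4 animals.

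WT and non-phagocytic levels took part in choosing the genes, since both stood clearly above phagocytic microglia. The difference between non-phagocytic and WT microglia was fitted with limma over all listed genes. Its estimates, p-values and calls for the 3 genes are a description and not a test of them. None of the 3 genes was called DE (adjusted p under 0.05 and absolute log2FC of at least 0.7), against 0.201% of all genes tested. Tmem204 had a log2FC of -0.91 (SE 0.39), a 95% interval of -1.73 to -0.10 and a limma adjusted p of 0.877. It was the only one of the 3 with an unadjusted limma p under 0.05, beside 929 of all 17951 genes. Of the 5 non-phagocytic libraries, 4 lay below every WT library for this gene. With library weights Tmem204 was called DE, at a log2FC of -1.04 and a limma adjusted p of 0.0394, and limma voom on the recovered reads called none of the 3. Within set B all non-phagocytic libraries lay below WT for Tmem204, with a difference in mean of -1.09, whereas in set A, with a difference of -0.64, 1 library lay below and 1 above all WT libraries.

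Tslp differed by 0.24 between non-phagocytic and WT microglia (SE 0.33), with a 95% interval of -0.46 to 0.94 and a limma adjusted p of 0.999. Set A alone gave a difference of 0.66 and set B one of -0.05. For Gm42944 the log2FC was -0.49 (SE 0.31), with a 95% interval of -1.15 to 0.17 and a limma adjusted p of 0.999. The libraries of set A differed by -0.89 and those of set B by -0.22. Leaving out non-phagocytic library 1, its lowest library, brought Gm42944 to -0.19. These intervals do not show that the levels were alike.

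Compared per length with the other listed genes, the group mean of Tmem204 stood above 82.8% of them in WT, 67.9% in non-phagocytic microglia and 9.89% in phagocytic microglia. Gm42944 stood above 84.3%, 77.5% and 18.7% of genes in the same groups. Tslp stood above 23.6% in WT, 25.4% in non-phagocytic microglia and 3.44% in phagocytic microglia. Over the 16 libraries the log2 levels of the 3 genes correlated with Pearson's r of 0.928 (Tmem204 and Tslp), 0.936 (Tmem204 and Gm42944) and 0.928 (Tslp and Gm42944), which the selection of the genes sets in large part. The deviations from the group means, over the same libraries, gave r of 0.19, 0.066 and -0.069 for these pairs. These within-group values share the libraries too and are a description.

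The TSLP receptor chains Crlf2 and Il7r were called in opposite directions. Of 24 genes fixed for the TSLP receptor and its signalling, 20 were listed, and between phagocytic and non-phagocytic microglia 2 were called higher, 3 lower and 15 were not called, beside 5.49% of all genes called (3.44% higher and 2.06% lower). The median log2FC of the list was -0.15, and that of all genes -0.094. Of the 20, 9 had an unadjusted limma p under 0.05, as had 3363 of all 17951 genes. Crlf2, the chain particular to TSLP, was at -0.20 to 1.83 log2 RPKM in WT with a median of 0.74, at 0.65, 1.76, 1.52, 1.71 and 0.51 in non-phagocytic libraries 1 to 5, and at 3.34, 4.18, 4.56 and 4.28 in phagocytic libraries 1 to 4. Phagocytic libraries lay above all others, and WT and non-phagocytic microglia overlapped. Crlf2 rose with a log2FC of 2.86 (SE 0.45, limma adjusted p = 0.00125).

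Il7r, the chain shared by the TSLP and interleukin-7 receptors, ranged from 3.36 to 4.86 log2 RPKM in WT with a median of 3.78. Its non-phagocytic levels were 4.27, 4.21, 3.02, 3.36 and 3.07 in libraries 1 to 5, and its phagocytic levels 0.79, 1.13, 0.73 and 1.49 in libraries 1 to 4. Here the phagocytic libraries lay below all others. Il7r fell with a log2FC of -2.55 (SE 0.34, limma adjusted p = 4.27e-04). Crlf2 differed by 2.56 within set A and by 3.18 within set B, and Il7r by -3.28 and -2.04. Both calls held in all 30 alternative fits. Il2rg, the common γ chain with which IL7R pairs for interleukin-7, had a log2FC of 0.49 with a limma adjusted p of 0.788, and its phagocytic libraries spread from -1.15 to 3.44 log2 RPKM.

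Downstream, Socs3, a feedback inhibitor of JAK and STAT signalling, fell with a log2FC of -2.29 (SE 0.46, limma adjusted p = 0.00748). Irf4, a transcription factor of lymphoid and myeloid cells, fell with a log2FC of -1.56 (SE 0.44, limma adjusted p = 0.0472), and Bcl2, an inhibitor of apoptosis, rose with a log2FC of 1.48 (SE 0.39, limma adjusted p = 0.0328). The call of Irf4 was kept in 12 of 30 alternative fits and that of Bcl2 in 21. A block for the replicate number lost both (limma adjusted p of 0.0548 for Irf4 and 0.0554 for Bcl2). That block also joins WT libraries to TG libraries of the same number, which come from other animals. With the animal as a random term Irf4 and Bcl2 were called, with limma adjusted p of 0.00706 and 0.0039. Leaving out 1 library lost Irf4 in 11 of 16 cases (WT 1, 4, 5 or 6, any non-phagocytic library, or phagocytic library 2 or 3), at limma adjusted p of 0.0554 to 0.128, and Bcl2 in 5 (non-phagocytic library 3, 4 or 5, or phagocytic library 1 or 2), at 0.0662 to 0.110. The kinases and STAT proteins of the pathway were not called. Jak1 had a log2FC of -0.41 and Jak2 of -0.49 (unadjusted limma p of 0.04975 and 0.04905), Stat5a of -0.18 and Stat5b of 0.12. Other uncalled genes of the list had larger log2FC. Pim1 was at -2.14 (limma adjusted p of 0.062), Cish at -2.03 (0.171) and Socs2 at 1.62 (0.415). None of the 20 genes was called between non-phagocytic and WT microglia by limma or by limma voom, where limma called 0.201% of all genes. Of the 20, 2 had an unadjusted limma p under 0.05 in that comparison, beside 929 of all 17951 genes. Ccl17 and Ccl22, chemokines that TSLP induces in dendritic cells, were not among the listed genes.

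Among 20 further cytokines and receptors of the interleukin-7 and type 2 families, 10 were listed and 1 was called between phagocytic and non-phagocytic microglia, beside 5.49% of all genes, with a median log2FC of -0.18. This was Il1rl1, the receptor for interleukin-33, which rose from -0.04 ± 0.64 (SD, n = 5) to 1.52 ± 0.61 (n = 4) log2 RPKM, with a log2FC of 1.57 (SE 0.44, limma adjusted p = 0.0466). Its call was kept in 14 of 30 alternative fits, including that with the animal as a random term (limma adjusted p of 0.00816). The call was lost under a block for the replicate number (limma adjusted p of 0.0588). It was also lost in 11 of 16 fits without 1 library (WT 2, 5, 6 or 7, non-phagocytic library 1, 3, 4 or 5, or phagocytic library 1, 2 or 3), at limma adjusted p of 0.0517 to 0.121. The transcripts of interleukin-7 and interleukin-33 were not among the listed genes. None of the 10 was called between non-phagocytic and WT microglia by limma or limma voom, where limma called 0.201% of all genes. In that comparison 1 of the 10 had an unadjusted limma p under 0.05, beside 929 of all 17951 genes. Between phagocytic and non-phagocytic microglia 1 of the 10 did, beside 3363 of all genes.

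No gene of the Tmem204 family, junction or VEGF lists was called lower in phagocytic microglia, where 2.06% of all genes were, a share too small for a count of 0 to set these lists apart. Of 38 genes of the claudin and PMP22 superfamily, 10 were listed, and limma and limma voom called none between phagocytic and non-phagocytic microglia. An unadjusted limma p under 0.05 was reached by 3363 of all 17951 genes and by 1 of these 10, whose median log2FC was 0.29. Pmp22 itself was the most abundant of them and had a log2FC of 1.33 with a limma adjusted p of 0.322. Cldn5, the main claudin of brain endothelium, was not among the listed genes. Of 20 adherens and tight junction genes, 15 entries were listed (Ctnnd1 under 2 identifiers), none was called by limma and 1 by limma voom. Of the 15, 4 had an unadjusted limma p under 0.05, as had 3363 of all 17951 genes. The median log2FC of the list was 0.28. Cdh5, the cadherin of endothelial junctions, had a log2FC of -2.41 with a limma adjusted p of 0.0727, and 4 of 29 alternative fits called it, among them the one with the animal as a random term (limma adjusted p of 0.0165) and those without WT 2 or phagocytic library 3 (0.0296 and 0.0317 as the lower and higher limma adjusted p).

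Of 10 VEGF receptors and ligands, 6 were listed, 3 were called and all 3 were higher in phagocytic microglia, beside 3.44% of all genes called higher. The median log2FC of the list was 1.3. Of the 6, 5 had an unadjusted limma p under 0.05, as had 3363 of all 17951 genes. Flt1, which encodes VEGF receptor 1, rose from -3.18 ± 1.21 (SD, n = 5) to 0.37 ± 0.25 (n = 4) log2 RPKM, with a log2FC of 3.55 (SE 0.69, limma adjusted p = 0.00608). It had 6 to 59 reads in the non-phagocytic libraries and 200 to 458 in the phagocytic libraries. Nrp1, a co-receptor of VEGF receptors that microglia express, rose with a log2FC of 1.37 (SE 0.27, limma adjusted p = 0.00657). Vegfb, a ligand of VEGF receptor 1, rose with a log2FC of 1.23 (SE 0.33, limma adjusted p = 0.0361), which 22 of 30 alternative fits kept. Leaving out non-phagocytic library 2, 3 or 5 or phagocytic library 2 or 4 lost it, at limma adjusted p of 0.0622 to 0.0964. Kdr, which encodes VEGF receptor 2, had a log2FC of -0.98 with a limma adjusted p of 0.398. No gene of the claudin, junction or VEGF lists was called between non-phagocytic and WT microglia by limma or limma voom. Limma called 0.201% of all genes there, a share too small for a count of 0 to set these lists apart. Among the genes of these lists only Flt1 had an unadjusted limma p under 0.05 in that comparison, beside 929 of all 17951 genes.

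**Figure D3:**
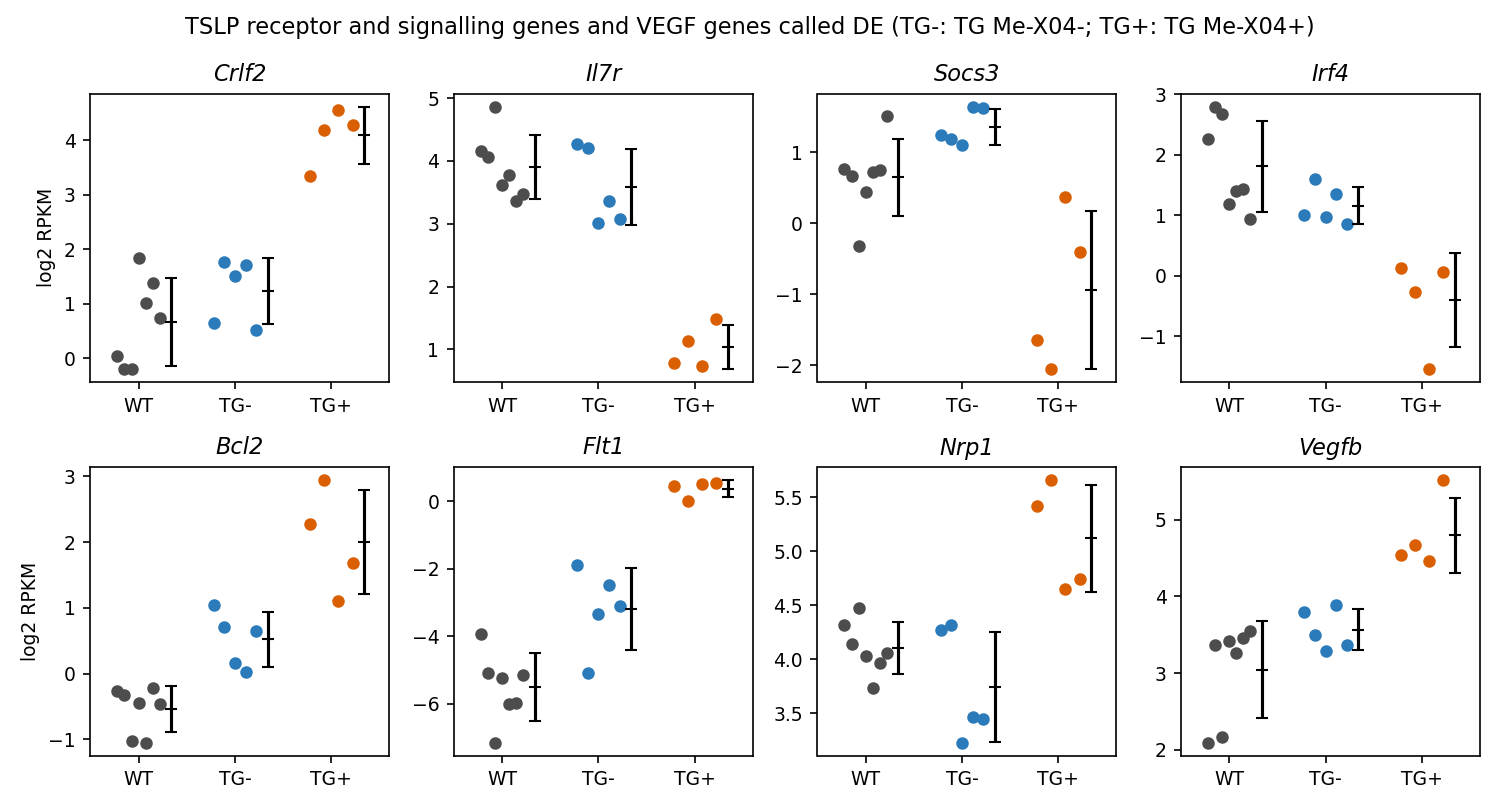
Log2 RPKM (vertical axes, a scale of its own in each panel) of the genes of the TSLP and VEGF lists that were called between phagocytic and non-phagocytic microglia, for each library of WT, non-phagocytic (TG-) and phagocytic (TG+) microglia, with group mean and SD as bars. Crlf2, Bcl2, Flt1, Nrp1 and Vegfb are higher, and Il7r, Socs3 and Irf4 lower, in all phagocytic libraries than in all non-phagocytic libraries.

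Because Tmem204 is also an endothelial gene, 12 endothelial markers were examined. Only 5 were listed, and their summed level was 2.58 to 13.8 RPKM in WT, 2.33 to 3.25 in non-phagocytic microglia and 1.26 to 9.04 in phagocytic microglia, ranges that overlap. None of the 5 had 0 reads throughout a group, 1 of them (Flt1) was called higher in phagocytic microglia than in non-phagocytic microglia, and their median log2FC was -0.98. Cldn5 and Vwf, which define endothelium, were not among the listed genes. Tmem204 averaged 10.7 RPKM in WT, and Pecam1, 1 of the 5 markers, ranged from 2.22 to 12.4 RPKM there. No marker of pericytes and fibroblasts (10 examined) was listed, and of 7 lymphocyte markers 1 was listed, at 0 to 0.825 RPKM in WT, 0 to 0.251 in non-phagocytic microglia and 0 to 0.117 in phagocytic microglia. Summed levels of the other marker lists overlapped between non-phagocytic microglia and phagocytic microglia except those of neurons, at 0.50 to 1.05 RPKM in non-phagocytic microglia and 0.064 to 0.447 in phagocytic microglia for 4 of 7 markers. Their part in the values of Tmem204, Tslp and Gm42944 was not tested.

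The share of neighbouring genes called was near that of all genes. Ift140, the ciliary transport gene that encloses Tmem204 on the opposite strand, had 192 to 458 reads in non-phagocytic microglia and 178 to 312 in phagocytic microglia, with a log2FC of -0.18 (SE 0.31, limma adjusted p = 0.813). The nearest listed genes on either side of Tmem204, Cramp1l and Telo2, had log2FC of -0.17 and -0.73, neither called. Of the 31 listed neighbours (the 5 nearest on each side of each gene, and Ift140), 1 was called higher and 1 lower between phagocytic and non-phagocytic microglia. Beside them, 5.49% of all genes were called in either direction. The median log2FC of the neighbours was 0.0041. Of the 31, 6 had an unadjusted limma p under 0.05, as had 3363 of all 17951 genes. Gnptg, a subunit of the phosphotransferase that tags lysosomal enzymes, 149739 bases from Tmem204, rose with a log2FC of 1.16 and a limma adjusted p of 0.0316. This call was lost under a block for the replicate number (limma adjusted p of 0.073). It was kept in 20 of 30 alternative fits, including that with the animal as a random term (limma adjusted p of 0.00788). Leaving out non-phagocytic library 1 or 5 or phagocytic library 1, 2 or 4 lost it too, at limma adjusted p of 0.0505 to 0.0743.

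The neighbour that fell was the lincRNA A830052D11Rik, 437104 bases from Tslp, with a log2FC of -2.81 (SE 0.63, limma adjusted p = 0.0148). It had 26 to 85 reads in non-phagocytic microglia and 0 to 10 in phagocytic microglia. This call was kept in 28 of 29 alternative fits and lost with limma voom on the recovered reads (limma adjusted p of 0.0501). It overlaps Bin1 on the opposite strand, which had a log2FC of -0.66 with a limma adjusted p of 0.58. Wdr36, 17427 bases downstream of Tslp, had a log2FC of -0.08 and was not called. Next to Gm42944, at 11330 bases, the processed pseudogene Gm37317 had a log2FC of -2.47 (SE 0.89, limma adjusted p = 0.125), and its 0 to 73 reads in phagocytic microglia overlapped the 11 to 199 in non-phagocytic microglia. None of the 31 neighbours was called between non-phagocytic and WT microglia by limma or limma voom, where limma called 0.201% of all genes. In that comparison 1 of the 31 had an unadjusted limma p under 0.05, beside 929 of all 17951 genes.

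**Figure D4:**
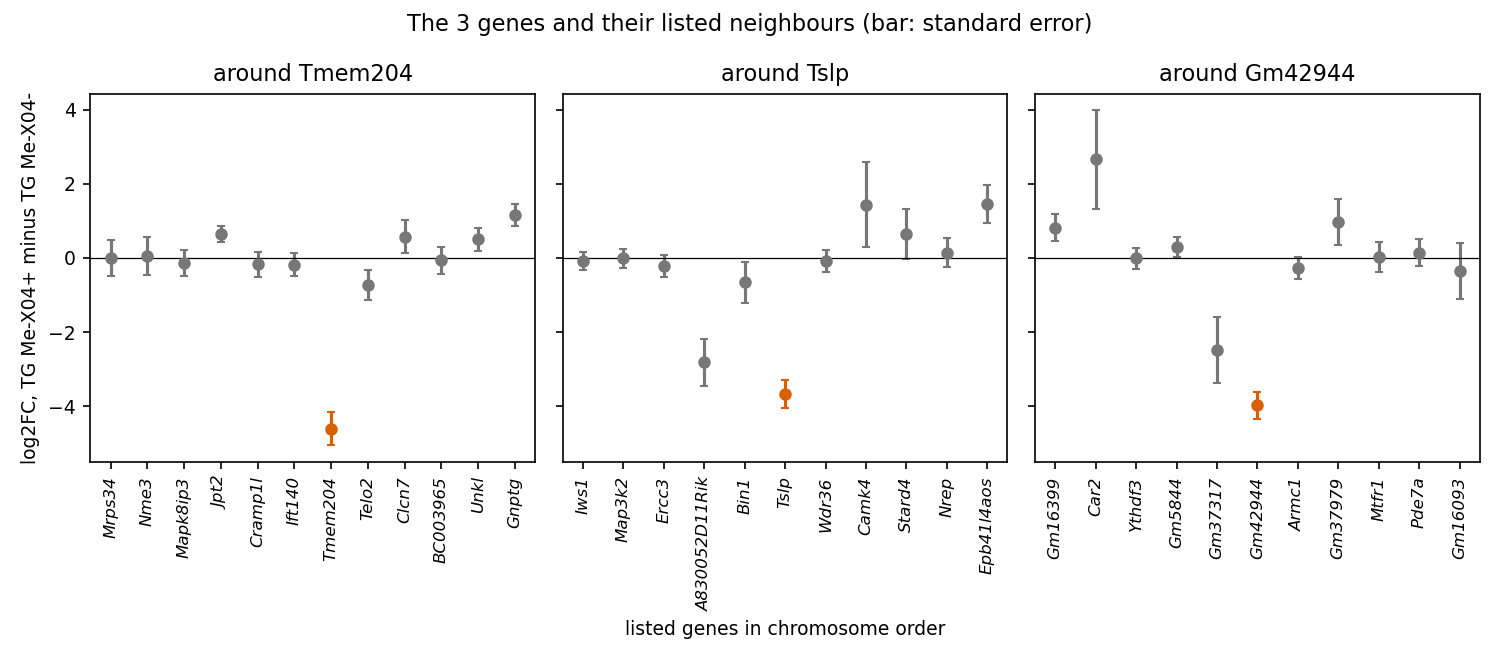
Log2FC of phagocytic relative to non-phagocytic microglia (vertical axis) with its standard error for Tmem204, Tslp and Gm42944 (orange) and the nearest listed genes on each side (grey), in chromosome order. The 3 genes stand at -4.60, -3.65 and -3.97, below all of their neighbours, of which A830052D11Rik at -2.81 and Gm37317 at -2.47 are the lowest.

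Ranked by log2FC between phagocytic and non-phagocytic microglia, Tmem204 was the 4th lowest of all genes, Gm42944 the 11th and Tslp the 19th, a description of how they were chosen. Just below Tmem204 in log2FC were Gm12985 at -5.08, Bank1 at -5.01 and C1rl at -4.71, and just above it Ptger3 at -4.58, Gm20412 at -4.42 and Gimap5 at -4.34, of which Ptger3 and Gimap5 had 0 reads in phagocytic microglia. Gm42944 stood between Slc39a12 (-4.24), Slc13a3 (-4.10) and Acy1 (-3.98) on one side and Ncr3-ps (-3.94), Gm38059 (-3.92) and Gimap6 (-3.84) on the other. Around Tslp, with log2FC that its prior sets, were Gm12708 (-3.68), Adcy8 (-3.66), Gm37437 (-3.66), Slc16a9 (-3.63), 1700066B19Rik (-3.59) and Gm15597 (-3.58).

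The genes whose log2 RPKM followed Tmem204 most closely over the 16 libraries, among 13324 genes with a mean of at least 0, were Bank1 (Pearson's r = 0.975), Tppp (0.967), Snn (0.958), Ms4a6b (0.957) and Zfp36l2 (0.953). For Tslp they were Siglece (0.935), Bank1 (0.935), Gm42944 (0.928), Tmem204 (0.928) and Abcg3 (0.927). For Gm42944 they were Ggta1 (0.959), Siglece (0.956), Sema4b (0.951), 1700066B19Rik (0.946) and Ms4a6b (0.946). These correlations share the libraries, their depth and the group differences that chose the genes, and are given as a description. Bank1, a signalling adaptor best known from B cells, averaged 3.48 log2 RPKM in WT, 2.61 in non-phagocytic microglia and -2.40 in phagocytic microglia, lower in phagocytic microglia than both other groups as Tmem204 was. Siglece, an inhibitory sialic acid receptor of microglia, averaged 4.37, 4.18 and 0.95 in the same groups. Tppp, Snn and Zfp36l2 followed the order of Tmem204 with smaller steps, and Zfp36l2, which destabilises mRNAs, averaged 5.47, 5.09 and 4.23.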

How the data were processed

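Total RNA of sorted microglia was amplified with Ovation RNA-Seq System V2 and sequenced on 2 platforms; which library was run on which is not given in the sources used here. The authors trimmed reads with Trim Galore 0.4.4, aligned them to GRCm38 with STAR 2.5.4b, counted them on Gencode genes with featureCounts, filtered low genes with filterByExpr and scaled libraries by TMM (edgeR 3.24.3). The authors deposited log2 RPKM values for 17951 genes, 1 column per library, with a prior of 2 reads at the mean library size. From their own comparisons the authors also deposited p-values, log2 fold changes and score columns (t and B statistics), none of which were used. Reads were recovered from the steps of the values, and 100% of values were whole within 0.01 reads.

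All 16 libraries entered 1 fit of the log2 values in limma 3.58.1 under R 4.3.3 (1 coefficient per group, no covariate, variance trend, two-sided, Benjamini-Hochberg over 17951 genes). The quasi-likelihood test of the study's methods needs counts and was not the main test. DE calls needed an adjusted p under 0.05 together with a log2FC of 0.7 or more in size. Fold changes are on the log2 scale with the prior, which understates changes of low genes. On simulated data for TG Me-X04+ against TG Me-X04-, 180 of 200 genes lowered by 2 log2 units were recovered among 17951 genes, with 5 false calls. The lowered genes were drawn from those above a minimum mean read count, with 1 dispersion for all genes. Neither the 2 sets of libraries nor the animal pairs were simulated, so these figures need not hold for the data.

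The genes, the lists and the tests were chosen with earlier results of these data known. Named were the 3 genes, list genes that were called, Crlf2, Il7r, Kdr, Flt1, Cldn5 and Cdh5, the 5 nearest listed genes on each side, the 5 closest correlates and the 3 genes on either side in rank. Pmp22, the kinases and STAT genes, Il2rg, Pim1, Cish, Socs2, Pecam1, Ptger3 and genes not listed were named after their values were seen. Gene symbols were those deposited for 12919 genes and those of the reference for 4874 of the other 5032. Coordinates are from a later GENCODE release on GRCm38 than the one counted on.

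Animal labels pair the TG libraries: deviations from group means correlated at r = 0.292 to 0.329 in the 4 pairs, against a mean of 0.272 for different animals of the same set and -0.282 across sets. WT libraries of the same number are other animals. Alternatives were other variance models, library weights, normalizations, pseudocounts of 1 and 0.1, a filter at a mean log2 value of 0, only 2 groups, blocks for replicate number or animal, limma voom on recovered reads, a term for the 2 sets, scaling outside mitochondrial genes, and each library left out. Figures were drawn with matplotlib 3.10.9.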

Additional observations from a re-analysis of the deposited data

How the results depend on the processing

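The log2FC of Tmem204, Tslp and Gm42944 between phagocytic and non-phagocytic microglia stayed negative in every fit run. These falls chose the genes and the groups did not overlap, so the sign had little room to change. Nothing is read from it. With log2(value + 1) the 3 log2FC were -2.41, -0.94 and -2.58. Tslp was at -2.87 with quantile normalization, -2.66 with log2(value + 0.1) and -5.32 with limma voom on recovered reads. Its value at 0 reads is that of the prior. Leaving out 1 library at a time gave -4.94 to -4.28 for Tmem204, -3.83 to -3.55 for Tslp and -4.27 to -3.78 for Gm42944. The filter at a mean log2 RPKM of 0 removed Tslp. Between non-phagocytic and WT microglia, whose levels took part in the choice, the values are a description. Tmem204 was called with library weights (log2FC of -1.04, limma adjusted p of 0.0394) and not in the other 29 fits. In those fits its limma adjusted p ranged from 0.396 to 1, and the cause was not tested. Leaving out 1 library at a time gave -1.23 to -0.76 for Tmem204, 0.14 to 0.41 for Tslp and -0.67 to -0.19 for Gm42944.

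Counts of called list genes between phagocytic and non-phagocytic microglia moved by over 1.5 times as follows. The TSLP list, 5 called, had 3 with quantile normalization, only the 2 groups and the replicate block. The related cytokines, 1 called, had 0 with quantile normalization, median centring, only the 2 groups, the replicate block and scaling outside mitochondrial genes. The neighbours, 2 called, had 1 with quantile normalization, the filter, only the 2 groups, the replicate block, limma voom and scaling outside mitochondrial genes, and 4 with the animal as a random term. The claudin list, 0 called, had 1 with library weights, the animal as a random term and the term for the 2 sets. The junction list, 0 called, had 1 with library weights and limma voom and 2 with the animal as a random term and the term for the 2 sets. Leaving out 1 library at a time gave 3 to 6 calls in the TSLP list, 0 to 1 among related cytokines, in the claudin list and in the junction list, 2 to 4 in the VEGF list and 1 to 3 among the neighbours. The TSLP list fell to 3 without non-phagocytic library 3, 4 or 5 or phagocytic library 2. Between non-phagocytic and WT microglia, library weights called 1 VEGF gene, where limma had called 0. Over all genes, calls between phagocytic and non-phagocytic microglia numbered 986 (617 higher, 369 lower), 470 with only the 2 groups, 894 with the replicate block, 2110 with the animal as a random term and 2142 with the term for the 2 sets; without non-phagocytic library 5 they were 552 and without phagocytic library 2 they were 624. The split was 421 higher and 407 lower with quantile normalization, 727 and 253 with log2(value + 1) and 308 and 680 with scaling outside mitochondrial genes. Between non-phagocytic and WT microglia calls numbered 36, and 175 with library weights, 13 with log2(value + 1), 18 with the replicate block, 101 with the term for the 2 sets, and 19, 23 and 23 without non-phagocytic library 1, 3 or 4. With 0 reads in each phagocytic library, depth sets only an upper limit on the level of Tslp there.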
